A study of Saccharomyces cerevisiae with 12 samples.

Results

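The 10 genes described here encode mitochondrial enzymes of the tricarboxylic acid (TCA) cycle of Saccharomyces cerevisiae. They were chosen by name, as the rows of CIT1, ACO1, IDH1, IDH2, KGD1, KGD2, LSC1, LSC2, FUM1, and MDH1 in a table of 7126 genes, with earlier results of these data known. All 10 passed the filter on low counts, as did 6044 genes in all. The libraries came from 3 strains that secrete α-amylase. B184 and MH34 are evolved strains, each a single isolate: UV mutagenesis of AAC gave MH34, and UV mutagenesis of MH34 gave B184. AAC, the original strain, carries a deletion within TPI1, the gene of triose phosphate isomerase, and a POT1 plasmid that expresses the α-amylase, and both evolved strains descend from it with this background. The labels give a high protein productivity for B184, a medium one for MH34, and a low one for AAC. Each strain was grown in a glucose-limited chemostat in medium with amino acids, in which the dilution rate sets the growth rate, at 0.2/h and at 0.1/h, with 2 biological replicates for each of the 6 groups. Pure ethanol was added to the cultures of B184 and MH34 at 0.1/h and to no others, so at 0.1/h the strain and the ethanol cannot be told apart.

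The TCA cycle oxidizes the acetyl group of acetyl coenzyme A to carbon dioxide in the mitochondrial matrix and passes electrons to the respiratory chain. It also supplies 2-oxoglutarate for glutamate synthesis and oxaloacetate for aspartate synthesis. In yeast, the genes of the first steps, which lead to 2-oxoglutarate, can be driven by the retrograde regulators Rtg1 and Rtg3, which bind a short site called the R box. The Hap complex, which binds CCAAT, drives many genes of respiration when glucose is scarce. CIT1 (YNR001C) encodes citrate synthase, ACO1 (YLR304C) aconitase, and IDH1 (YNL037C) and IDH2 (YOR136W) the subunits of NAD-dependent isocitrate dehydrogenase. KGD1 (YIL125W) and KGD2 (YDR148C) encode the first and second components of the 2-oxoglutarate dehydrogenase complex, LSC1 (YOR142W) and LSC2 (YGR244C) the alpha and beta subunits of succinyl coenzyme A ligase, FUM1 (YPL262W) fumarase, and MDH1 (YKL085W) malate dehydrogenase. Succinate dehydrogenase, which joins the cycle to the respiratory chain, is taken up further below as a list of its own.

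The genes lie on 8 chromosomes of the R64 assembly, with CIT1 and IDH1 on chromosome XIV and IDH2 and LSC1 on chromosome XV. Each has 1 coding exon in the RefSeq annotation and overlaps no other annotated gene. Their upstream sequences were searched for CCAAT and its reverse complement ATTGG, and for the R box core GTCAC and its reverse complement GTGAC, in the 300 bases before the start codon. The 4 windows printed here belong to IDH1 and MDH1, whose mRNA levels differed most between groups, to IDH2, which encodes the partner subunit of IDH1, and to LSC2, which moved against them. They are written 5′ to 3′ on the coding strand from RefSeq's R64 genome, a reference strain and not the strains of the study, and capitals mark the matches. The windows are chrXIV:559003-559302 (minus strand) for IDH1, chrXV:579950-580249 (plus strand) for IDH2, chrXI:278823-279122 (plus strand) for MDH1, and chrVII:979320-979619 (minus strand) for LSC2.
IDH1: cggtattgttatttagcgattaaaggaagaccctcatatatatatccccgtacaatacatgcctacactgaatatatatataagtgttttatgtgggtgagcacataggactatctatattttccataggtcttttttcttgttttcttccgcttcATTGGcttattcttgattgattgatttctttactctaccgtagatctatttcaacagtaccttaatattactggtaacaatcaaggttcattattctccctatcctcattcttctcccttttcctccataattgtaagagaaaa
IDH2: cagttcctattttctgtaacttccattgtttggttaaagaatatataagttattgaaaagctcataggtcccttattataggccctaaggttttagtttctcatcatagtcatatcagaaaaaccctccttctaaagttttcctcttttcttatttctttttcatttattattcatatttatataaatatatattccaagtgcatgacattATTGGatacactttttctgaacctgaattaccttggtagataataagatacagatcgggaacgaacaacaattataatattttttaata
MDH1: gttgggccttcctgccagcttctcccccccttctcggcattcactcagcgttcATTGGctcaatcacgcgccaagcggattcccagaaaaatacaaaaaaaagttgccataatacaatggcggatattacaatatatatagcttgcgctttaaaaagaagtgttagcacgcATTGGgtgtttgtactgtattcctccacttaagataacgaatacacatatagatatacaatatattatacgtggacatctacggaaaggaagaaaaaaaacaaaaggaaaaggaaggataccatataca
LSC2: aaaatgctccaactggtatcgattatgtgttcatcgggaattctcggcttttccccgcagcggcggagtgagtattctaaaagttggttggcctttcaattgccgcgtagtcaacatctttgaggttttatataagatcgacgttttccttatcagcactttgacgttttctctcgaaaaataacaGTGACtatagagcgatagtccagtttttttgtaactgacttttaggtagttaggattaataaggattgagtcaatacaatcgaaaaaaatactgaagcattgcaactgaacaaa

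CCAAT, on either strand, was found in the windows of 7 of the 10 genes (CIT1, ACO1, IDH1, IDH2, KGD1, FUM1, and MDH1), and 41.8% of 6001 yeast windows of the same length hold it. ACO1 and MDH1 have 2 matches each. The first base of the match lies at -144 in IDH1 and at -89 in IDH2, counted from the start codon. In MDH1, the matches are at -247 and -129. The GTCAC core was found in KGD1, LSC2, and FUM1, 3 of 10 genes, against 26.5% of all windows, and in LSC2 it lies at -114. KGD2 and LSC1 hold neither run of letters in this window. These matches are a description of the letters and not of binding.

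Counts were scaled to CPM, counts relative to a fixed library total, with edgeR's TMM normalization. The members were abundant, with between 2364 and 32243 reads each in every library. Per kilobase of coding length, which allows genes to be compared, MDH1 had the highest level, with group means between 1186 and 3348 CPM per kb, followed by CIT1, between 1114 and 1703 CPM per kb. KGD1 had the lowest, between 197.9 and 259.6 CPM per kb. The highest group mean of a gene was 3.22 times its lowest for IDH1, 2.82 times for MDH1, 2.15 times for ACO1, and 2.13 times for IDH2, while it was 1.31 times for KGD1. Summed over the 10 genes, members took 1.22% and 1.23% of the counts in B184, 1.29% and 1.05% in MH34, and 1.294% and 1.120% in AAC at 0.2/h. At 0.1/h, they took 1.13% and 1.10% in B184, 1.503% and 1.486% in MH34, and 0.947% and 1.11% in AAC, so that MH34 at 0.1/h had the highest share of all 6 groups. The libraries held between 6040221 and 10785960 counts in all, and the smallest came from AAC at 0.1/h. TPI1, which all strains lack in large part, had between 132 and 637 counts per library.

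**Figure D1:**
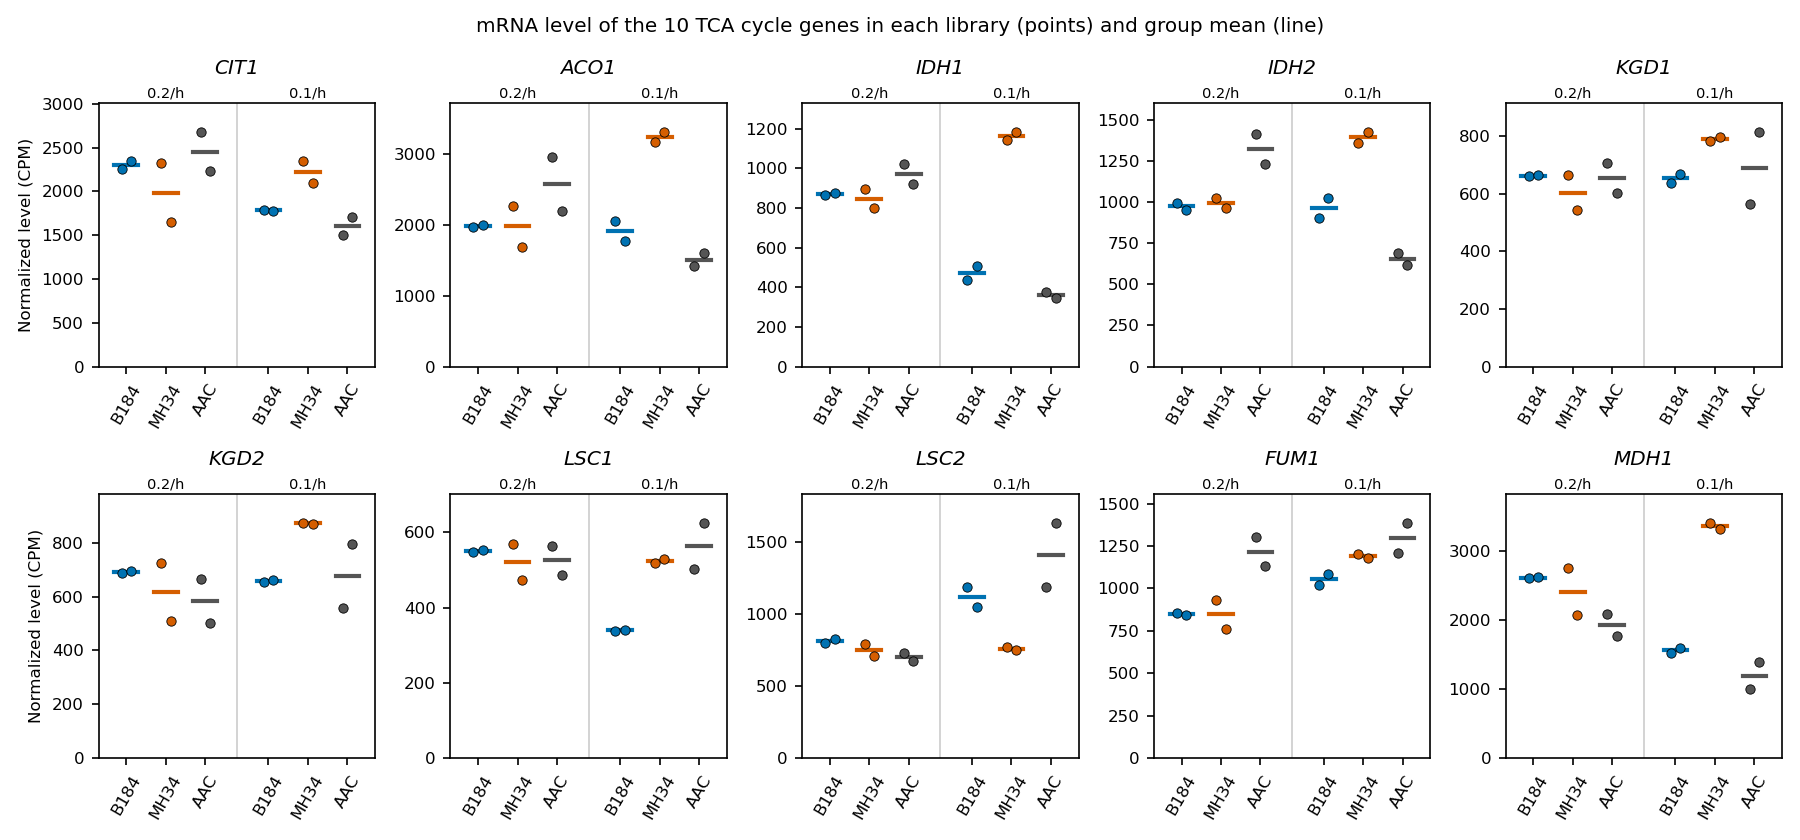
Normalized level in CPM (vertical axes, each starting at 0) of the 10 TCA cycle genes. Points are single libraries and lines are group means (n = 2), with 0.2/h on the left and 0.1/h on the right of each panel. By group mean, IDH1, IDH2, ACO1, MDH1, KGD1, and KGD2 stand highest in MH34 at 0.1/h, where LSC2 is low. There IDH2 overlaps AAC at 0.2/h, and KGD1, which spans a narrow range, overlaps AAC at 0.1/h.

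Replicates of 3 groups differed across the whole set, which bears on all comparisons below. Replicate 1 was above replicate 2 for 10 of 10 genes in MH34 at 0.2/h and for 10 of 10 in AAC at 0.2/h, with a median log2 difference of 0.30 and 0.22. In AAC at 0.1/h, replicate 2 was above replicate 1 for 8 of 10 genes, with a median difference (replicate 1 over 2) of -0.25, and the largest gap of any group, 0.53 on the log2 scale. IDH1 and IDH2 were the exceptions there. Over all genes, too, the replicates of AAC at 0.1/h differed most, with a median absolute log2 difference of 0.17, and those of B184 at 0.2/h least, with 0.056.

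At 0.1/h, 5 of the 10 genes were higher in MH34 than in AAC and 1 was lower. The mRNAs for the enzymes of the first steps, from citrate synthase to isocitrate dehydrogenase, were all higher. So was that of malate dehydrogenase at the last step, and that of the beta subunit of succinyl coenzyme A ligase was lower. In this comparison 35.5% of all genes tested were higher and 33.3% were lower by the same rule, an adjusted p under 0.05 in edgeR's quasi-likelihood test. The median log2 fold change was 0.42 over the members and 0.02 over all genes tested. IDH1 had 1145 and 1184 CPM in MH34, against 378.4 and 343.9 CPM in AAC. This was the largest difference of the set, with a log2 fold change of 1.69 ± 0.11 (SE) and an adjusted p of 2.4e-07. Its partner IDH2 had 1363 and 1427 CPM in MH34, against 692.9 and 614.7 CPM in AAC (log2 fold change 1.09 ± 0.11, adjusted p 6.1e-06 in edgeR). MDH1 had 3405 and 3324 CPM in MH34, against 995.2 and 1389 CPM in AAC (1.497 ± 0.175, adjusted p 1.8e-05). None of these groups overlapped.

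ACO1 had 3173 and 3316 CPM in MH34 at 0.1/h, against 1419 and 1605 CPM in AAC, a log2 fold change of 1.10 ± 0.17 with an adjusted p of 1.7e-04 in edgeR. CIT1, the entry point of the cycle, differed less, with 2348 and 2098 CPM in MH34, against 1506 and 1702 CPM in AAC (0.47 ± 0.16, adjusted p 0.022). The call was lost in the smaller data sets with replicate 1 of MH34 left out (0.388, adjusted p 0.128 in edgeR) or replicate 1 of AAC left out (0.386, adjusted p 0.092). LSC2 was lower, with 767.3 and 751.6 CPM in MH34, against 1189 and 1627 CPM in AAC (-0.89 ± 0.14, adjusted p 1.5e-04). KGD2, at 0.37 (95% confidence interval -0.07 to 0.81), KGD1, at 0.20 (-0.15 to 0.54), LSC1, at -0.11 (-0.37 to 0.16), and FUM1, at -0.12 (-0.39 to 0.14), did not pass the threshold. Without replicate 2 of AAC, KGD1 and KGD2 passed it, at 0.49 and 0.65, with adjusted p of 0.0054 and 0.025 in edgeR.

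**Figure D2:**
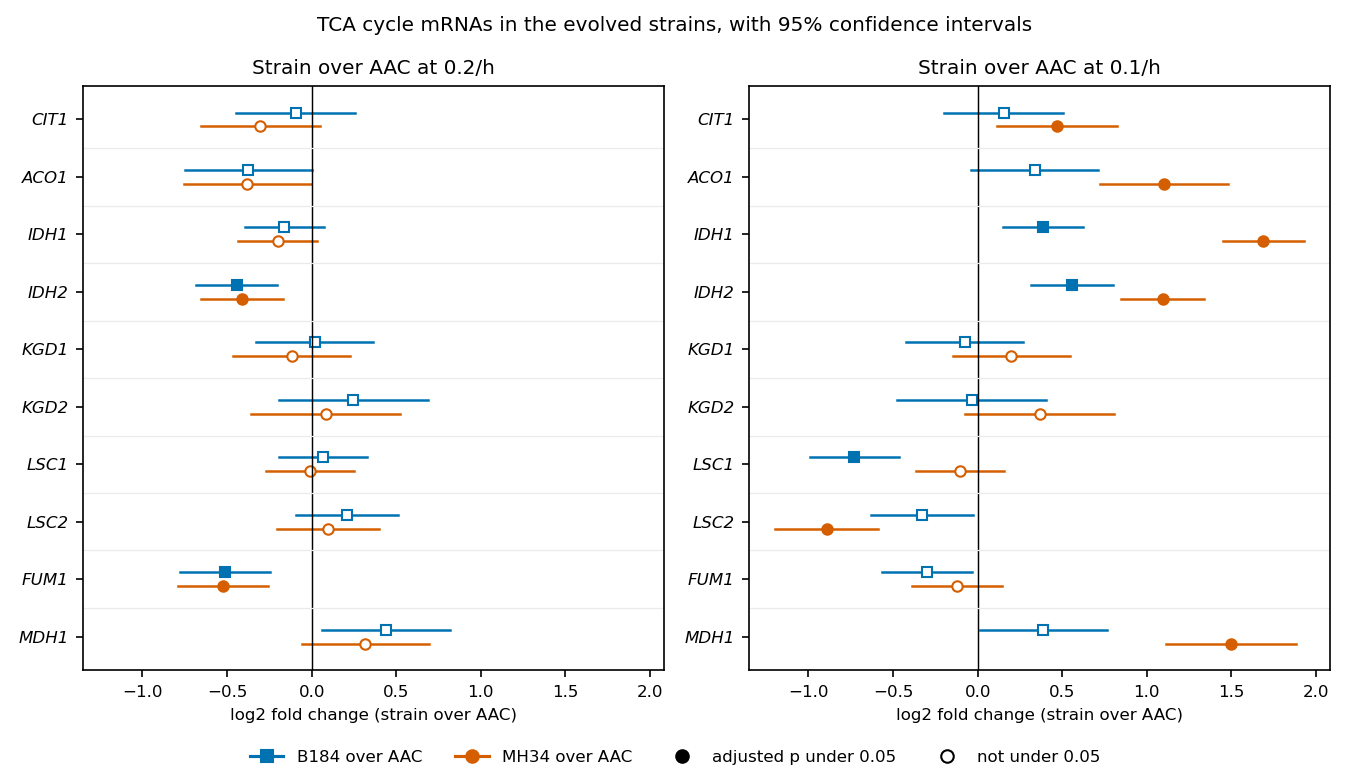
Log2 fold change of B184 over AAC and of MH34 over AAC (horizontal axis) for each TCA cycle gene, at 0.2/h (left) and 0.1/h (right). Bars are 95% confidence intervals from the edgeR fit and filled symbols have an adjusted p under 0.05; the large differences of MH34 at 0.1/h, such as 1.69 for IDH1, have no counterpart at 0.2/h, where IDH1 is at -0.20.

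B184 at 0.1/h differed from AAC in 3 of the 10 genes. Both subunit mRNAs of isocitrate dehydrogenase were again higher, and LSC1, the alpha subunit of succinyl coenzyme A ligase, was lower. That makes 2 of 10 genes higher and 1 lower, where 16.5% of all genes were higher and 20.4% were lower. IDH2 had 902 and 1024 CPM in B184, against 692.9 and 614.7 CPM in AAC (log2 fold change 0.56 ± 0.11, adjusted p 0.0026 in edgeR). IDH1 had 434.3 and 509.9 CPM in B184, against 378.4 and 343.9 CPM in AAC (0.39 ± 0.11, adjusted p 0.016). The groups did not overlap for either gene, but the call of IDH1 was lost without replicate 2 of B184 (0.27, adjusted p 0.144 in edgeR), without replicate 2 of AAC (0.32, adjusted p 0.053), and when only these groups were fitted (0.43, adjusted p 0.061).

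LSC1 had 338.4 and 340.8 CPM in B184 at 0.1/h, the lowest of the 6 groups, against 502.2 and 623.6 CPM in AAC, a log2 fold change of -0.73 ± 0.12 with an adjusted p of 8.5e-04 in edgeR. Its level in B184 at 0.1/h stood apart from the other 5 groups, whose libraries held between 474.3 and 623.6 CPM. The remaining genes did not pass the threshold: MDH1 was at 0.39, ACO1 at 0.34, CIT1 at 0.15, KGD2 at -0.04, KGD1 at -0.08, FUM1 at -0.30, and LSC2 at -0.33 on the log2 scale. Without replicate 1 of AAC, LSC2 (-0.54, adjusted p 0.0031) and FUM1 (-0.39, adjusted p 0.036) passed it, which made 5 calls, and without replicate 2 of AAC, MDH1 did (0.65, adjusted p 0.0095). MDH1 also passed with library totals (0.43, adjusted p 0.049) and with DESeq2 (0.40, adjusted p 0.046).

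The evolved strains differed from each other at 0.1/h in 6 genes. ACO1, IDH1, IDH2, LSC1, and MDH1 were lower in B184 than in MH34, and LSC2 was higher. The background is 33.6% of all genes lower and 29.1% higher. IDH1 had 434.3 and 509.9 CPM in B184, against 1145 and 1184 CPM in MH34 (log2 fold change -1.30 ± 0.11, adjusted p 2.0e-06 in edgeR). MDH1 had 1528 and 1595 CPM in B184, against 3405 and 3324 CPM in MH34 (-1.11 ± 0.17, adjusted p 2.0e-04). The other genes that were lower were ACO1, at -0.76, LSC1, at -0.62, and IDH2, at -0.53 on the log2 scale, and LSC2 was higher by 0.56. CIT1 (-0.32), FUM1 (-0.18), KGD1 (-0.28), and KGD2 (-0.40) did not pass. Both groups received ethanol, so this comparison holds the addition alike. All 6 calls were kept in each of the 10 alternative analyses that were run.

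At 0.2/h, none of the 10 genes was higher in an evolved strain than in AAC, and the same 2 genes, IDH2 and FUM1, were lower in both. The background is 18.4% of all genes higher and 17.7% lower in B184, and 17.4% higher and 15.7% lower in MH34, a split that depends on the scaling of the libraries. Both comparisons use the same AAC libraries. FUM1, fumarase, had 857.5 and 846.2 CPM in B184 and 934.5 and 758.6 CPM in MH34, against 1302 and 1130 CPM in AAC. Its log2 fold change was -0.51 ± 0.12 in B184 (adjusted p 0.0074 in edgeR) and -0.52 ± 0.12 in MH34 (adjusted p 0.0075). IDH2 had 996.5 and 951.2 CPM in B184 and 1023 and 965.5 CPM in MH34, against 1417 and 1230 CPM in AAC. Its log2 fold change was -0.44 ± 0.11 in B184 (adjusted p 0.0094) and -0.41 ± 0.11 in MH34 (adjusted p 0.014). No evolved library reached the AAC libraries for either gene.

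With 1 library left out, these calls were lost in several fits, each with the same direction. Without replicate 1 of AAC at 0.2/h, FUM1 was at -0.41 in B184 and -0.42 in MH34 and IDH2 at -0.34 and -0.31, with adjusted p between 0.058 and 0.108 in edgeR. Without replicate 2 of B184, FUM1 was at -0.50 (adjusted p 0.060) and IDH2 at -0.41 (0.083), and without its replicate 1, FUM1 was at -0.52 (0.051). Without replicate 2 of MH34, FUM1 was at -0.37 (adjusted p 0.061) and IDH2 at -0.36 (0.082), and IDH2 was also lost in MH34 when only these groups were fitted (-0.40, adjusted p 0.052). ACO1, at -0.38 in MH34 and -0.37 in B184 on the log2 scale, passed in both strains without replicate 2 of AAC (-0.58 and -0.57), and ACO1 and CIT1 passed in MH34 without its replicate 1, at -0.61 and -0.58, which made 4 calls. MDH1 was at 0.44 (95% confidence interval 0.06 to 0.81) in B184 and 0.32 (-0.06 to 0.70) in MH34, with adjusted p of 0.067 and 0.178. It passed with counts scaled to library totals alone (0.53 in B184 and 0.43 in MH34, adjusted p 0.019 and 0.047), and in B184 with DESeq2 (0.44, adjusted p 0.027). CIT1 was at -0.095 in B184 and -0.30 in MH34. IDH1, KGD1, KGD2, LSC1, and LSC2 lay between -0.20 and 0.25 in both strains.

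B184 and MH34 did not differ in any of the 10 genes at 0.2/h in edgeR, where 1 gene of 6044 passed the threshold, or 0.0165%. At an unadjusted p under 0.05, 0 members and 204 of all genes were found, and DESeq2 called 0 members and 2 genes in all. The log2 fold changes of the members lay between -0.03 for IDH2 and 0.21 for CIT1 (95% confidence interval -0.14 to 0.56). The widest interval was that of KGD2, from -0.28 to 0.60.

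The effect of the dilution rate differed between strains. In AAC, the genes of the first steps and MDH1 were higher at 0.2/h than at the lower rate, and LSC2 was lower. These were 5 genes higher and 1 lower, where 32.7% of all genes were higher and 35.5% were lower. The same genes were called in the same directions for MH34 against AAC at 0.1/h, and both comparisons rest on the same AAC libraries at 0.1/h. IDH1 had 1023 and 921.5 CPM at 0.2/h, against 378.4 and 343.9 CPM at 0.1/h (log2 fold change 1.43 ± 0.11, adjusted p 8.3e-07 in edgeR). IDH2 had 1417 and 1230 CPM at 0.2/h, against 692.9 and 614.7 CPM at 0.1/h (1.02 ± 0.11, adjusted p 1.1e-05). LSC2 had 728.7 and 673.4 CPM at 0.2/h, against 1189 and 1627 CPM at 0.1/h (-1.01 ± 0.14, adjusted p 6.8e-05). ACO1 (0.77 ± 0.17), MDH1 (0.70 ± 0.17), and CIT1 (0.61 ± 0.16) completed the set, with adjusted p between 0.0020 and 0.0056, and all 6 calls held under the 10 alternatives. KGD1, at -0.07, passed only without replicate 1 of AAC at 0.1/h (-0.31, adjusted p 0.042). KGD2 (-0.21), LSC1 (-0.10), and FUM1 (-0.09) did not pass.

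In MH34, ACO1, IDH1, IDH2, and FUM1 were lower at 0.2/h than at the lower rate and no member was higher, with 13.3% of all genes lower and 13.5% higher. ACO1 had 2274 and 1689 CPM at 0.2/h, against 3173 and 3316 CPM at 0.1/h (log2 fold change -0.71 ± 0.17, adjusted p 0.013 in edgeR). FUM1 had 934.5 and 758.6 CPM at 0.2/h, against 1203 and 1179 CPM at 0.1/h (-0.49 ± 0.12, adjusted p 0.014). IDH2 (-0.49 ± 0.11) and IDH1 (-0.46 ± 0.11) had adjusted p of 0.0100 and 0.011. All 4 calls were lost without replicate 1 of MH34 at 0.1/h (adjusted p 0.056 to 0.089), without replicate 2 at 0.1/h (0.072 to 0.079), or without replicate 2 at 0.2/h (0.067 to 0.108), which left 0 members. In these fits the log2 fold change was between -0.74 and -0.51 for ACO1, -0.48 and -0.38 for IDH1, -0.52 and -0.45 for IDH2, and -0.51 and -0.35 for FUM1. MDH1 (-0.48), KGD2 (-0.50), KGD1 (-0.39), CIT1 (-0.16), LSC2 (-0.02), and LSC1 (-0.005) did not pass, though DESeq2 called MDH1 (adjusted p 0.024) and KGD2 (0.047). The count over all genes also fell with these libraries, to 433, 551, and 585 genes, against 1619 with all libraries. Without replicate 1 at 0.2/h, KGD2 (-0.77) and MDH1 (-0.70) passed as well, for 6 calls. Ethanol was added only to the 0.1/h cultures of MH34 and of B184, so in both strains the rate and the addition cannot be told apart. The paper lists ethanol production by every strain at 0.2/h and by none at 0.1/h.

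In B184, IDH1, LSC1, and MDH1 were higher at 0.2/h than at the lower rate, and LSC2 and FUM1 were lower, with 33.9% of all genes higher and 32.7% lower. IDH1 had 864.1 and 876 CPM at 0.2/h, against 434.3 and 509.9 CPM at 0.1/h (log2 fold change 0.88 ± 0.11, adjusted p 2.5e-05 in edgeR). IDH2, which encodes the other subunit of the same enzyme, had 996.5 and 951.2 CPM at 0.2/h, against 902 and 1024 CPM at 0.1/h, and its log2 fold change was 0.02 (95% confidence interval -0.22 to 0.26). MDH1 had 2615 and 2626 CPM at 0.2/h, against 1528 and 1595 CPM at 0.1/h (0.75 ± 0.17, adjusted p 0.0025). LSC1 had 548.3 and 553.1 CPM at 0.2/h, against 338.4 and 340.8 CPM at 0.1/h (0.70 ± 0.12, adjusted p 3.4e-04). LSC2 was at -0.46 ± 0.14 (adjusted p 0.011) and FUM1 at -0.31 ± 0.12 (adjusted p 0.043). The call of FUM1 was lost without any 1 of the 4 B184 libraries (-0.346 to -0.265, adjusted p 0.082 to 0.170) and with the replicate block (-0.31, adjusted p 0.055). That of LSC2 was lost without replicate 1 at 0.1/h (-0.37, adjusted p 0.087) or replicate 1 at 0.2/h (-0.44, adjusted p 0.065), which left 3 members. CIT1 (0.36, adjusted p 0.065), KGD2 (0.07), ACO1 (0.06), and KGD1 (0.02) did not pass, though DESeq2 called CIT1 (adjusted p 0.041).

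**Figure D3:**
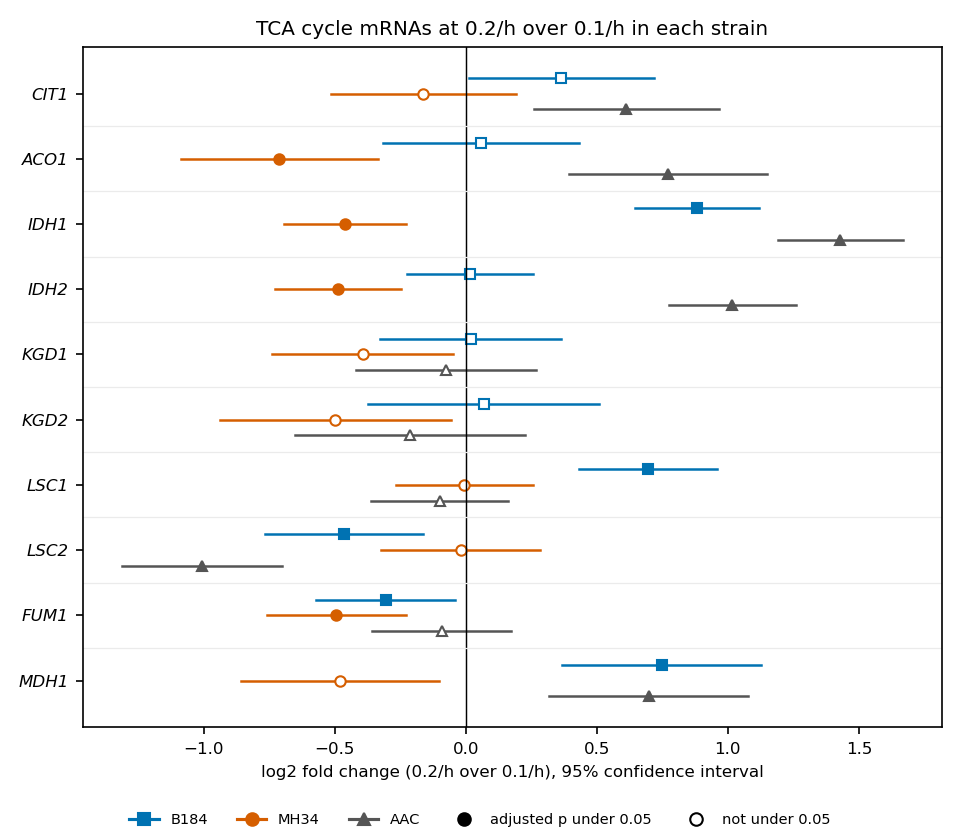
Log2 fold change at 0.2/h over 0.1/h (horizontal axis) of each TCA cycle gene in B184, MH34, and AAC. Bars are 95% confidence intervals and filled symbols have an adjusted p under 0.05; IDH1 and MDH1 lie to the right of 0 in B184 and AAC, and to the left in MH34, where MDH1 did not pass.

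The difference between the strain effects at the 2 rates was tested itself, as the effect at 0.2/h minus that at 0.1/h. For MH34 against AAC, the 5 genes that were higher at 0.1/h had a lower effect at 0.2/h, and LSC2 had a higher one, where 26.6% of all genes were lower and 26.6% were higher. The log2 difference was -1.89 ± 0.15 for IDH1 (adjusted p 5.0e-06 in edgeR), -1.51 ± 0.15 for IDH2, -1.48 ± 0.24 for ACO1, -1.18 ± 0.24 for MDH1, -0.77 ± 0.23 for CIT1, and 0.99 ± 0.20 for LSC2. The adjusted p of CIT1, the largest of the 6, was 0.014. Its call was lost without replicate 1 of MH34 at 0.1/h (-0.69, adjusted p 0.057) and without replicate 1 of AAC at 0.2/h (-0.64, adjusted p 0.054). FUM1, at -0.40, passed without replicate 2 of AAC at 0.1/h (-0.50), replicate 2 of AAC at 0.2/h (-0.50), or replicate 1 of MH34 at 0.2/h (-0.56). KGD1, at -0.32, passed without replicate 2 of AAC at 0.1/h (-0.61), and KGD2 (-0.285) and LSC1 (0.09) did not pass.

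For B184 against AAC, 2 genes differed between the rates, in a comparison where 2.23% of all genes were lower and 3.26% were higher. IDH2 was at -1.001 ± 0.155 (adjusted p 0.0053 in edgeR) and was called under all 14 alternatives. LSC1 was at 0.80 ± 0.17 (adjusted p 0.021), and its call was lost without replicate 1 or 2 of B184 at 0.1/h (0.073 and 0.082), replicate 2 of AAC at 0.2/h (0.081), or replicate 1 or 2 of B184 at 0.2/h (0.086 and 0.094), which left 1 call. In these fits LSC1 was between 0.69 and 0.80 on the log2 scale. IDH1, at -0.55 (95% confidence interval -0.88 to -0.22), and ACO1, at -0.71 (-1.24 to -0.18), had adjusted p of 0.058 and 0.107. Without replicate 1 of AAC at 0.1/h, IDH1 (-0.62, adjusted p 0.021) and LSC2 (0.75, adjusted p 0.0048) passed, which made 4 calls. DESeq2 also gave 4, with ACO1 (adjusted p 0.026) and IDH1 (0.0068). LSC2 (0.54), KGD2 (0.28), KGD1 (0.09), MDH1 (0.05), FUM1 (-0.21), and CIT1 (-0.25) did not pass.

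KGD1 and KGD2, the components of 2-oxoglutarate dehydrogenase, passed the threshold in none of the 11 comparisons. The share of all genes called in each comparison is given above. KGD1 had 660.6 and 662.9 CPM in B184, 663.3 and 541.8 CPM in MH34, and 705.4 and 602.4 CPM in AAC at 0.2/h. At 0.1/h, it had 637.9 and 668.2 CPM in B184, 784.1 and 797.3 CPM in MH34, and 563.2 and 813.9 CPM in AAC. The libraries of AAC at 0.1/h held both the highest level of the gene and one near its lowest. Some alternatives called them: of B184 against MH34 at 0.1/h, a fit of those groups alone gave -0.24 for KGD1 (adjusted p 0.0077) and -0.36 for KGD2 (adjusted p 5.3e-04).

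The ratio of the mRNAs of 1 enzyme, per kilobase, shows where subunits moved apart. KGD1 over KGD2 stayed between 0.411 and 0.549 in the 12 libraries. IDH1 over IDH2 was 0.889 and 0.944 in B184, 0.896 and 0.848 in MH34, and 0.741 and 0.768 in AAC at 0.2/h. At 0.1/h, it was 0.494 and 0.510 in B184, 0.861 and 0.851 in MH34, and 0.560 and 0.574 in AAC, so MH34 at 0.1/h lay within the range of the 0.2/h libraries and the other strains lay below it. LSC1 over LSC2 behaved alike, with 0.889 and 0.872 in B184, 0.930 and 0.871 in MH34, and 1.005 and 0.937 in AAC at 0.2/h. At 0.1/h, it was 0.370 and 0.421 in B184, 0.876 and 0.911 in MH34, and 0.548 and 0.497 in AAC. In AAC at 0.1/h the low ratio came with the highest LSC2 of all groups. In B184 at 0.1/h it came with the lowest LSC1 and also with a high LSC2, at 1188 and 1051 CPM. MDH1 over LSC2, genes of different enzymes, lay between 1.64 and 1.94 in B184 and between 5.65 and 5.67 in MH34 at 0.1/h, against 1.07 to 1.09 in AAC. At 0.2/h, it lay between 4.08 and 4.17 in B184 and between 3.75 and 4.43 in MH34, against 3.37 to 3.67 in AAC. This pair was chosen after its values were seen to move in opposite directions. With 2 libraries a group, these ratios were not tested and are given as descriptions.

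**Figure D4:**
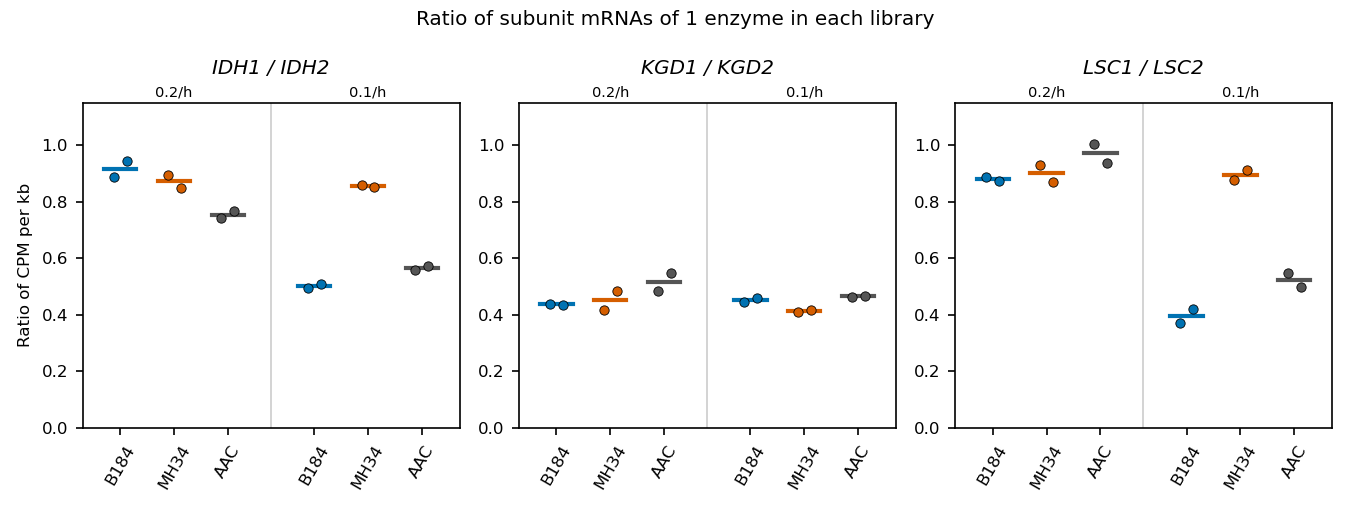
Ratio of CPM per kb between the mRNAs of 2 subunits or components of 1 enzyme (vertical axis, from 0), for isocitrate dehydrogenase, 2-oxoglutarate dehydrogenase, and succinyl coenzyme A ligase. Points are libraries and lines are group means; IDH1/IDH2 and LSC1/LSC2 are low in B184 and AAC at 0.1/h, and KGD1/KGD2 stays between 0.411 and 0.549.

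Across the 12 libraries, CIT1, ACO1, IDH1, IDH2, and MDH1 varied together, with Pearson's r of log2 CPM between 0.71 and 0.89 in the 10 pairs among them. KGD1 and KGD2 had an r of 0.92. LSC2 ran opposite to IDH1 (r = -0.93), to IDH2 (-0.82), and to MDH1 (-0.69). These libraries fall into 6 groups, so the coefficients describe the group pattern and are not tests. Against the mean profile of the 10 members, single members had r between -0.36 for LSC2 and 0.89 for ACO1. The 5 other genes most like that profile over the 12 libraries were COX13 (r = 0.96), a subunit of cytochrome c oxidase, ACH1 (0.96), an acetyl coenzyme A hydrolase, ENV7 (0.91), a vacuolar membrane kinase, SDH3 (0.90), the cytochrome b subunit of succinate dehydrogenase, and PGC1 (0.90), a phosphatidylglycerol phospholipase.

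Succinate dehydrogenase, the enzyme between succinyl coenzyme A ligase and fumarase, was followed as 8 genes of its subunits and assembly factors. At 0.1/h, 3 of 8 were higher in MH34 than in AAC and none was lower, with a median log2 fold change of 0.46, where 35.5% of all genes were higher and 33.3% were lower. SDH4, which anchors the enzyme in the membrane, was at 0.80, SDH7, an assembly factor, at 0.59, and SDH3 at 0.42. In B184 at 0.1/h, none was higher and 2 of 8 were lower than in AAC, SDH7 (-0.32) and SDH8 (-0.26), against 16.5% of all genes higher and 20.4% lower. B184 had 5 of 8 lower than MH34 at 0.1/h, against 33.6% of all genes, among them SDH7 (-0.91), SDH2 (-0.81), the iron-sulfur subunit, and SDH3 (-0.56). At 0.2/h, SDH4 (0.71 in B184 and 0.57 in MH34) and SDH5 (0.54 and 0.42), an assembly factor, were higher in both evolved strains than in AAC, and SDH7 (-0.28 and -0.34) was lower. That is 2 of 8 higher in each strain, where 18.4% of all genes were higher in B184 and 17.4% in MH34. KGD4, a small subunit of 2-oxoglutarate dehydrogenase, was higher in MH34 than in AAC at 0.1/h (0.66) and lower in B184 than in MH34 at 0.1/h (-0.84). LPD1, the dihydrolipoamide dehydrogenase shared with pyruvate dehydrogenase, was called in no comparison.

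Isozymes that catalyze the same or related reactions were followed as 8 genes. CIT2, the peroxisomal citrate synthase of the glyoxylate cycle and a known target of the Rtg regulators, had 2171 and 2105 CPM in B184 and 3868 and 3250 CPM in MH34 at 0.1/h, against 796.9 and 523.7 CPM in AAC. The log2 fold change was 1.70 in B184 (adjusted p 4.7e-05 in edgeR) and 2.43 in MH34 (adjusted p 7.7e-07). Per kilobase at 0.1/h, the ratio of CIT1 to CIT2 was 0.792 and 0.811 in B184 and 0.583 and 0.620 in MH34, against 1.81 and 3.12 in AAC. CIT2 lies on chromosome III, whose 151 genes had a median log2 fold change over AAC of 0.89 in B184 and 0.83 in MH34 at 0.1/h, and of 0.96 and 0.99 at 0.2/h, while the other chromosomes were between -0.05 and -0.02. None of the 10 members lies on that chromosome, and its part in the CIT2 values was not tested. At 0.2/h, CIT2 had 1550 and 1722 CPM in B184 and 1363 and 1349 CPM in MH34, against 1403 and 1192 CPM in AAC, and passed in neither strain (0.33 and 0.06). CIT1, CIT2, and CIT3 are homologous, and how reads that map to several genes were counted is not given in the sources used here.

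CIT3, a mitochondrial citrate and methylcitrate synthase, went the other way, with 98.16 and 86.36 CPM in B184 and 92.71 and 72.43 CPM in MH34 at 0.1/h, against 189.9 and 314.7 CPM in AAC. Its log2 fold change was -1.45 in B184 (adjusted p 0.0080 in edgeR) and -1.61 in MH34 (adjusted p 0.0018). IDP3, the peroxisomal NADP-dependent isocitrate dehydrogenase, was lower in both as well, at -2.18 in B184 and -1.43 in MH34. In all, 1 of 8 isozymes was higher and 2 were lower in B184 at 0.1/h, and 3 were higher and 2 were lower in MH34. Of all genes, 16.5% were higher and 20.4% lower in B184, and 35.5% were higher and 33.3% lower in MH34. At 0.2/h, CIT3 (1.46) and IDP2 (0.83), the cytosolic enzyme, were higher in B184 than in AAC. That is 2 of 8 higher and none lower, where 18.4% of all genes were higher and 17.7% lower. In MH34 at 0.2/h, none was higher and 1 was lower, where 17.4% of all genes were higher and 15.7% lower. In AAC, CIT3 was lower at 0.2/h than at the lower rate by the largest amount of the list (-2.70).

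**Figure D5:**
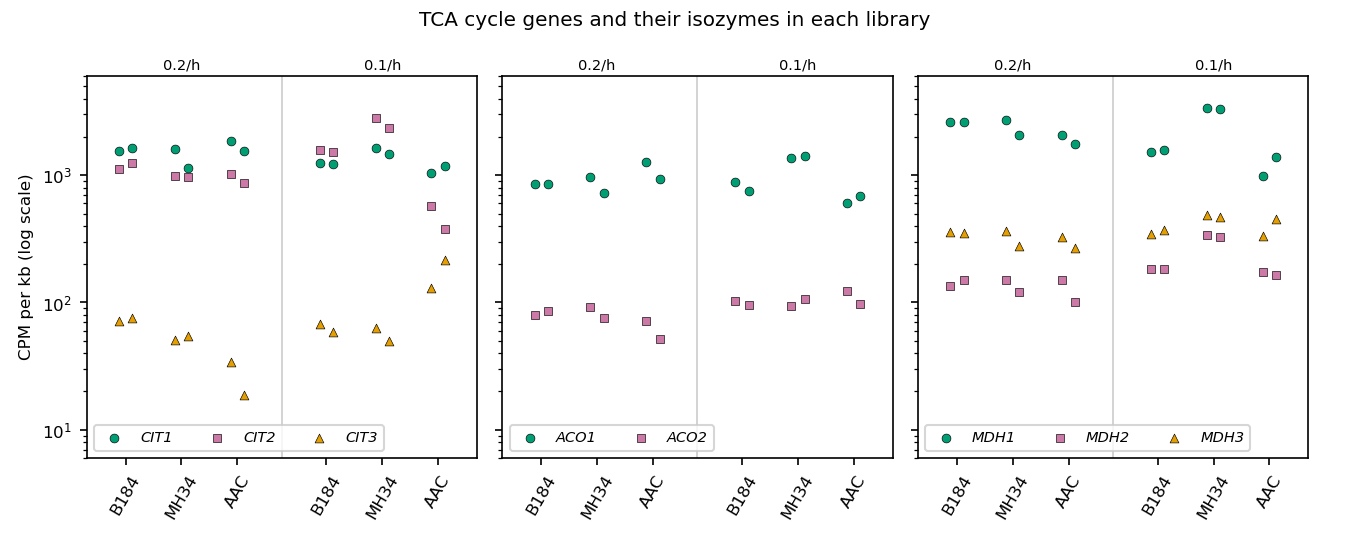
Level in CPM per kb (log axis) of TCA cycle genes and their isozymes in each library. CIT2 lies above CIT1 in B184 and MH34 at 0.1/h and below it in the other groups, while ACO1 and MDH1 lie above their isozymes in every library.

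The regulators were followed as 9 genes. In MH34 at 0.1/h, 1 was higher and 6 were lower than in AAC, with a median log2 fold change of -0.35, where 35.5% of all genes were higher and 33.3% were lower. HAP3, a DNA-binding subunit of the Hap complex, was at -1.68, HAP1, the heme-responsive activator, at -1.34, and HAP5, another subunit, at -0.86. HAP2 (-0.11) and HAP4 (-0.07), the other subunits of the complex, did not pass. The 1 gene that was higher was RTG2, with a mean of 184.2 CPM in MH34, against 145.3 CPM in AAC. The retrograde regulators RTG1 (40.57 against 58.84 CPM) and RTG3 (86.01 against 109.4 CPM), and MKS1 (111.2 against 141.4 CPM), were lower. In B184 at 0.1/h, none was higher and HAP1 (-0.92), HAP3 (-0.72), and HAP5 (-0.43) were the 3 that were lower, where 16.5% of all genes were higher and 20.4% were lower, and HAP2 (-0.19) and HAP4 (-0.14) did not pass. At 0.2/h, none was higher in either strain, and 4 of 9 were lower in B184 (17.7% of all genes) and 5 of 9 in MH34 (15.7% of all genes), with HAP1 (-0.92 and -0.74) the furthest from AAC. Any link between these mRNAs and those of the members was not tested.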

How the data were processed

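RNA from 12 chemostat cultures was measured by RNA sequencing, in 6 groups of 2 biological replicates given by the labels. The authors prepared stranded mRNA libraries, mapped paired reads to the Ensembl R64-1-1 genome, and deposited whole-number read counts per gene without normalization. The study's methods name the nf-core RNA-seq pipeline, while the submitters' processing notes name TopHat2 2.0.12, Cufflinks 2.2.1, and Subread 1.4.6, and which of these made the counts is not settled by the sources used here. The strand setting and the treatment of reads with several locations are not given in the sources used here, which leaves counts of homologous genes uncertain.

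Counts were tested in edgeR 4.0.16 (R 4.3.3) with TMM normalization, its filter on low counts by group, and its quasi-likelihood test with robust estimates, on all 6 groups together and 6044 genes. Adjusted p values (Benjamini-Hochberg over all genes tested, threshold 0.05) and standard errors come from this fit. The p-values set a difference against the spread between replicate cultures, estimated over the 6 groups with information shared across genes. They do not cover the spread between isolates. The script was tested on simulated data. At this depth, with 6040221 to 10785960 counts per library, strain comparisons had a standard error of 0.10 (median, log2 scale). The alternatives were DESeq2 1.42.0 and its size factors, library totals, no filter, only the groups compared, the replicate block, and leaving out each library. Motif matches were counted with Python 3.11.15 in 300 bases before each start codon of the RefSeq R64 genome.

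The members and gene lists were chosen with earlier results of these data known. All 10 members are named in every comparison, and of each other list at most the 3 called genes with the largest fold change. The chromosome III values, the ratio of MDH1 to LSC2, and the 5 genes whose correlations are given together were chosen after values were seen.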

Additional observations from a re-analysis of the deposited data

Results flagged for a closer look

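For 8 values, the effect of an evolved strain against AAC differed between the dilution rates by a test of the difference itself, edgeR's quasi-likelihood test of the effect at 0.2/h minus that at 0.1/h. For MH34, the log2 differences were -0.774 for CIT1, -1.483 for ACO1, -1.889 for IDH1, -1.506 for IDH2, and -1.178 for MDH1, and 0.987 for LSC2. CIT1, ACO1, IDH1, and IDH2 had a log2 fold change over AAC below 0 at 0.2/h and above 0 at 0.1/h, and LSC2 had the opposite pair of signs. MDH1 was above AAC at both rates. For B184, the log2 differences were -1.001 for IDH2, which was below AAC at 0.2/h (-0.44) and above it at 0.1/h (0.56), and 0.797 for LSC1, which was at 0.07 over AAC at 0.2/h and at -0.73 at 0.1/h. The AAC libraries enter both sets of differences, and the cultures of the evolved strains at 0.1/h alone held added ethanol, so the rate and the ethanol cannot be told apart here.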

How the results depend on the processing

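Of 42 calls of a member, 28 were kept under every alternative run for their comparison, and no called value changed sign. All 42 were kept with DESeq2's test, its size factors in edgeR, library totals, and no filter on low counts, and 40 when only the groups compared were fitted. That last setting gave 1 member in MH34 against AAC at 0.2/h, where 2 were called, with 1366 genes in all against 2000. It gave 4 in B184 against AAC at 0.2/h, where 2 were called, with 2465 genes in all against 2187. DESeq2 gave 4 members for the rate dependence of B184, where 2 were called, with 454 genes in all against 332. Leaving out 1 library gave 2 to 5 members for B184 against AAC at 0.1/h (3 with all libraries), 0 to 4 for MH34 against AAC at 0.2/h, 0 to 3 for B184 against AAC at 0.2/h, 0 to 6 for 0.2/h against 0.1/h in MH34 (4 with all libraries), 3 to 4 for the same in B184 (5 with all libraries), and 1 to 4 for the rate dependence of B184. The number of all genes called moved in these fits as well, not always in the direction of the members, and the cause was not tested. Members not called passed the threshold in 7 cases with DESeq2, 3 with library totals, 7 with only the groups compared, and 18 with 1 library left out.

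Replicate numbers were not treated as pairs. The differences between replicates 1 and 2 correlated between groups at r from -0.20 to 0.37. The highest r was that of AAC with MH34 at 0.2/h, and in both groups replicate 1 was above replicate 2 for 10 of 10 members. The replicate block is a single term for all groups, so it cannot settle whether these groups share a replicate effect. With the replicate block, 41 of 42 calls were kept, and 4 members were called for 0.2/h against 0.1/h in B184, where FUM1 was lost. With 2 libraries a group, the absence of calls for KGD1 and KGD2 does not show that their levels were equal.

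Scaling to library totals alone, in place of TMM, moved the median log2 fold change of all genes by -0.10 for MH34 against AAC at 0.1/h, 0.12 for the same at 0.2/h, 0.15 for B184 against MH34 at 0.1/h, -0.15 for the rate in AAC, and 0.22 for the rate dependence of MH34. The share of all called genes that were higher then became 76.7% instead of 52.6% for MH34 and 70.9% instead of 51.0% for B184 against AAC at 0.2/h, 58.8% instead of 46.4% for B184 against MH34 at 0.1/h, 36.8% instead of 47.9% for the rate in AAC, 65.7% instead of 50.3% for the rate in MH34, and 68.2% instead of 50.0% for the rate dependence of MH34 and 73.9% instead of 59.3% for that of B184.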

Other observations

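Carbon enters the cycle through pyruvate dehydrogenase and pyruvate carboxylase. Of 6 genes of these enzymes, 3 were higher and 2 were lower in MH34 than in AAC at 0.1/h, where 35.5% of all genes were higher and 33.3% were lower. PDB1 (log2 fold change 0.97) and PDA1 (0.95), the subunits of the first component of pyruvate dehydrogenase, and LAT1 (0.58), its acetyltransferase, were higher. PDA1 had 681.7 and 646.2 CPM in MH34, against 337.1 and 350.5 CPM in AAC. In B184 at 0.1/h, PDB1 (0.30) was the 1 gene that passed, where 16.5% of all genes were higher and 20.4% were lower. PDA1 and PDB1 were also higher at 0.2/h than at the lower rate in B184 (0.81 and 0.60) and in AAC (0.76 and 0.67), as IDH1 was.

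Of 7 mitochondrial carriers of the cycle's acids, 4 were higher and 2 were lower in MH34 than in AAC at 0.1/h, against the same shares of all genes. SFC1, a succinate and fumarate carrier, was at 1.75, YHM2, a citrate and oxoglutarate carrier, at 1.08, and DIC1, the dicarboxylate carrier, at -1.85 on the log2 scale. In B184 at 0.1/h, 1 was higher and 4 were lower, against 16.5% and 20.4% of all genes, with SFC1 at 1.21, DIC1 at -1.03, and CTP1, a citrate carrier, at -0.55. SFC1 was lower at 0.2/h than at the lower rate in B184 (-1.63) and in MH34 (-2.49). At 0.2/h, ODC2, an oxodicarboxylate carrier, was lower in both evolved strains than in AAC (-0.67 in B184 and -0.66 in MH34).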
